A study of Mus musculus with 4 samples.

Results

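The Myc family and Max network was measured on 19 probe sets of 9 genes, out of 20393 probe sets of 12394 genes that the platform annotation ties to exactly 1 gene symbol. Its members were chosen by gene family, and with the difference between the groups in view: every probe set annotated to Myc, Mycn, Max, Mxd1, Mxd3, Mxd4, Mxi1, Mnt or Mlx alone was taken, and the values compared below are the ones on which the genes were proposed. Differences of these probe sets are therefore given as a description, with no test. The annotation names a member together with another gene symbol on 0 probe sets.

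The Cre-GFP group comprised 2 arrays of marrow from Mll-AF4stop knock-in mice infected with a Cre-GFP retrovirus, and the control group 2 arrays of marrow from the same kind of mice infected with a control GFP retrovirus. All donors had received 5-FU (5-fluorouracil, which kills cycling blood cells) 5 days before infection, and in both groups GFP-positive cells were sorted 2 days after it and kept for 14 days with lymphoid growth factors. The knock-in holds a silent Mll-AF4 fusion that Cre is meant to activate. The sample labels name a GFP control virus whereas the design text writes MIG-Cre for it, so whether the controls lacked Cre is not settled by the labels, and an effect of Cre itself cannot be told apart from one of the fusion. The age of the mice, and whether arrays of 1 group came from separate mice or cultures, are not given in the sources used here, so the spread between arrays may be technical.

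Myc and Mycn are basic helix-loop-helix leucine zipper transcription factors that bind E-box DNA only as a pair with Max and mainly activate genes of growth, ribosome production and metabolism. The Mxd proteins, Mxi1 (also called Mxd2) and Mnt pair with the same Max molecules, bind the same E-boxes and bring in Sin3 and histone deacetylases, which represses the genes. Mlx is a Max-like protein that pairs with Mnt, with some Mxd proteins and with the glucose-sensing factors Mlxip (MondoA) and Mlxipl (ChREBP). In mouse marrow Myc and Mycn are both expressed in blood progenitors, and Mycn is known from early B lineage cells.

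Mycn was much lower in Cre-GFP cultures on its brightest probe set, Mxd3 was modestly lower on all 3 of its probe sets, and Myc, Max, Mlx and the other antagonists overlapped between the groups on at least 1 probe set. Known induced targets of Myc were slightly higher and known repressed genes slightly lower by their medians, and no single gene passed the test over the whole table.

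Over the whole table no probe set passed limma at a Benjamini-Hochberg adjusted p of 0.05, so 0 of 19 member probe sets passed beside a background of 0.0%. At an unadjusted p under 0.05 there were 976 of 20393 probe sets, and an ordinary two-sample test called 1 probe set, which was not a member. Median intensities of the arrays were 85.1 to 87.7, and the 20th percentile was 4.69 to 4.76 on the log2 scale. All 19 member probe sets stood above the 20th percentile on every array, while 7 stood below the array median on every array, a range where RMA compresses differences. In these bulk cultures a change in the share of a cell type and a change in RNA per cell cannot be told apart. Summed intensities of 11 B lineage markers were 30509 and 30563 in Cre-GFP 1 and 2, against 36358 and 41229 in control 1 and 2, and 9 of the 11 were lower in Cre-GFP by group means. The sums of 10 monocyte and macrophage markers were 2334 and 1618 in Cre-GFP, against 971.3 and 1433 in control. Without Csf1r, the brightest of them, they were 1302 and 979.6 against 684.5 and 951.5. Those of 8 erythroid markers were 841.1 and 894.6 against 1632 and 1599 (449.4 and 430.3 against 446.6 and 439.0 without Car2, the brightest of them). Those of 10 neutrophil markers were 3753 and 4475 against 1512 and 5286, or 2330 and 2318 against 1009 and 2452 without S100a8. By group means 8 of the 10 monocyte and 8 of the 10 neutrophil markers were higher in Cre-GFP, and 2 of each were lower. Of all genes 50.0% were higher and 49.8% lower by group means. Both Cre-GFP arrays were above both controls for 4 neutrophil, 3 monocyte, 2 erythroid and 1 B lineage markers, beside 15.2% of all genes. They were below both controls for 6 B lineage, 3 erythroid, 0 neutrophil and 0 monocyte markers, beside 14.9%. The 8 T lineage markers summed to 1455 and 1377 in Cre-GFP, against 1666 and 1525 in control, or 401.5 and 360.6 against 388.1 and 379.5 without Thy1, and 4 were higher and 4 lower by group means. None of the B lineage, erythroid or neutrophil markers was under the 20th percentile on all arrays, as were 2 of the monocyte, 3 of the T lineage and 4 of 6 stroma markers. The part of these markers in the results below was not tested.

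Mycn had the most negative difference of all 20393 probe sets. Its probe set 1425923_at read 11.52 in Cre-GFP 1 and 10.02 in Cre-GFP 2 (log2 intensity), against 13.63 and 13.49 in control 1 and 2. In linear intensity these values were 2947 and 1041 in Cre-GFP, against 12698 and 11472 in control. Both Cre-GFP arrays were far below both control arrays, and the groups did not overlap. The difference was −2.78 ± 0.46 (limma SE, n = 2 per group), or 6.89-fold lower in Cre-GFP. A reduction of 2-fold or more was found for 0.363% of all probe sets. The 2 Cre-GFP arrays lay 1.50 apart and the 2 control arrays 0.15, so the size of the difference depended on the Cre-GFP array used, being −2.03 with Cre-GFP 1 alone and −3.54 with Cre-GFP 2 alone, against −2.71 without control 1 and −2.86 without control 2.

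The other probe sets of Mycn did not give this size. Probe set 1417155_at read 8.23 and 7.69 in Cre-GFP, against 9.02 and 8.39 in control, a difference of −0.75 ± 0.29. Again both Cre-GFP arrays were below both control arrays, but the lower control array stood close to the higher Cre-GFP array. This difference was −0.48 without Cre-GFP 2, −0.44 without control 1 and −1.06 without control 2. The third probe set, 1425922_a_at, is dim and read 5.05 and 5.05 in Cre-GFP, against 5.31 and 4.74 in control, so the groups overlapped and the difference was 0.03 ± 0.19. It turned to −0.26 without control 2 and was 0.31 without control 1. The change of 1425923_at exceeded that of 1417155_at by −2.04 and that of 1425922_a_at by −2.81 on the log2 scale. The 3 probe sets therefore disagree on size, and the dim one also on direction. The mean of the 3 differences was −1.17. Which part of the transcript each probe set reads was not analysed here.

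**Figure D1:**
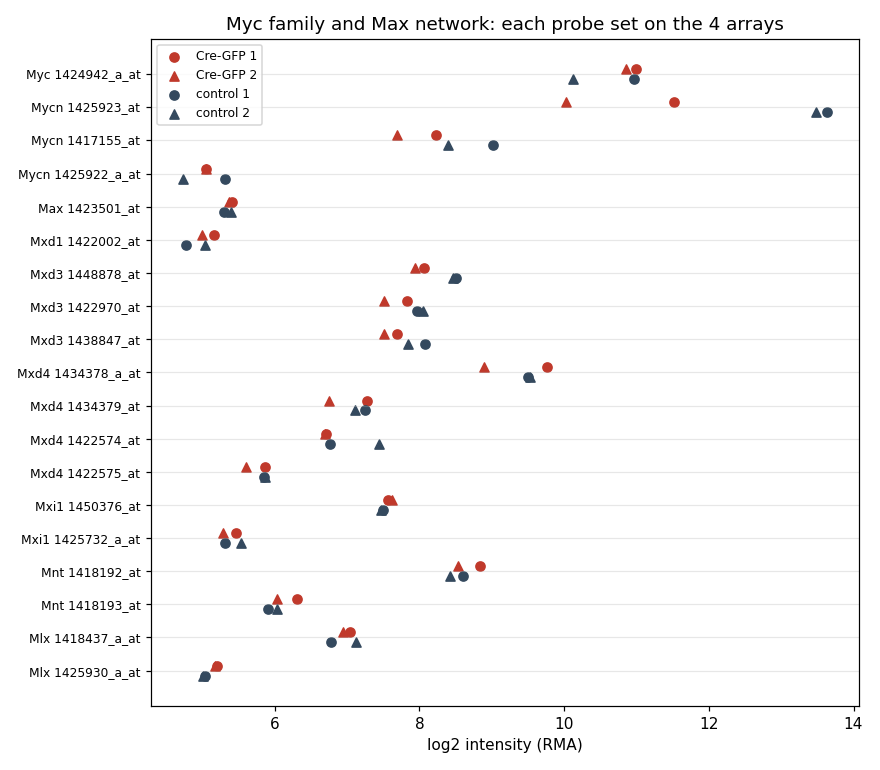
Log2 intensity (x axis) of each of the 19 member probe sets (rows) on each array, with Cre-GFP in red above control in dark blue, circles for replicate 1 and triangles for replicate 2. Mycn 1425923_at stands at 11.52 and 10.02 in Cre-GFP and at 13.63 and 13.49 in control, while the arrays of most other probe sets lie within a narrow range.

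Myc, the other activator measured in the rule, did not share this pattern. Its only probe set read 10.99 and 10.85 in Cre-GFP, against 10.96 and 10.12 in control. Control 1 stood at the level of the Cre-GFP arrays and control 2 alone was lower, so the groups overlapped. The difference was 0.38 ± 0.29, and it was 0.80 without control 1 and −0.04 without control 2, so its direction rested on control 2. On the log2 scale the difference of Mycn 1425923_at minus that of Myc was −3.17, with −2.48 in Cre-GFP 1 and −3.85 in Cre-GFP 2 when each array was set against the control mean of the same quantity. The corresponding control arrays stood at −0.35 and 0.35. The difference minus that of Myc was −1.13 for Mycn 1417155_at and −0.36 for 1425922_a_at, and −1.55 for the mean of the Mycn probe sets. All of these gaps were negative.

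The promoter of Mycn is shown because it is the member with the largest difference, and that of Mxd3 because it is the other gene lower on its brightest probe set in both Cre-GFP arrays. Both windows run from 250 bases before to 50 bases after the annotated gene start and come from RefSeq (GRCm38.p6), in 5′ to 3′ direction of the gene. Capitals mark the E-box CACGTG and the E2F-type octamers TTTGGCGC and TTTCGCGC on either strand.
Mycn (chr12:12941787-12942086, strand minus): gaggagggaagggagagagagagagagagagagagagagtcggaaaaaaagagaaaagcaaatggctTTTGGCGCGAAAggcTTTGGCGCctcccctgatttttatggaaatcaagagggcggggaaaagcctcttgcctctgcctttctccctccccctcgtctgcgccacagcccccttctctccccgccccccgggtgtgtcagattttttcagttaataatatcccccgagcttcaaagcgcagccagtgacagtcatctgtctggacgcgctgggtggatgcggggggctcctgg
Mxd3 (chr13:55329682-55329981, strand minus): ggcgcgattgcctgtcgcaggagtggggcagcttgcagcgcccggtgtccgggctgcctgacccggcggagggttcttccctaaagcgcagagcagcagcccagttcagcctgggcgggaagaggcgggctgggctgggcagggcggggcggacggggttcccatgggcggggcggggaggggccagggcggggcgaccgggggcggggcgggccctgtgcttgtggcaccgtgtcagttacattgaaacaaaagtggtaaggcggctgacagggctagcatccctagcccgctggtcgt
The Mycn window held TTTGGCGC 2 times and the reverse complement of TTTCGCGC 1 time, which overlaps the first TTTGGCGC, and no CACGTG. Of all 32851 promoter windows used, 0.514% held TTTGGCGC and 0.323% TTTCGCGC. Windows of 1 chromosome, on which no member lies, were left out of these shares and of those below. The Mxd3 window held none of the 3 motifs.

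Max, the shared partner of the Myc and Mxd proteins, was read by 1 dim probe set. It read 5.40 and 5.37 in Cre-GFP, against 5.30 and 5.39 in control. Control 2 stood between the Cre-GFP arrays, and the difference was 0.04 ± 0.10. Leaving out 1 array gave −0.0071 to 0.09. The difference of Mycn 1425923_at minus that of Max was −2.83.

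Mxd3, an Mxd antagonist expressed in proliferating cells, was lower in both Cre-GFP arrays on each of its 3 probe sets. Its brightest probe set, 1448878_at, read 8.07 and 7.94 in Cre-GFP, against 8.51 and 8.46 in control. Both Cre-GFP arrays were lower than both control arrays, with a difference of −0.48 ± 0.16 (1.40-fold lower). The probe sets 1422970_at and 1438847_at differed by −0.34 ± 0.18 and −0.36 ± 0.17, also with both Cre-GFP arrays below both control arrays. Left-out arrays moved the difference of the brightest between −0.55 and −0.42, while that of 1422970_at was −0.18 without Cre-GFP 2 and that of 1438847_at −0.24 without control 1. Of all 15 measured cell cycle genes, 9 were lower and 6 higher in Cre-GFP by group means with a median of −0.02, and their summed intensities were 45574 and 43718 in Cre-GFP, against 47091 and 42072 in control.

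Mxd4, an antagonist linked to differentiation, was lower by group means on all 4 of its probe sets, without agreement between the arrays. The brightest, 1434378_a_at, read 9.76 and 8.90 in Cre-GFP, against 9.49 and 9.53 in control. Cre-GFP 1 was above and Cre-GFP 2 below both controls, and the difference of −0.18 ± 0.30 became 0.25 without Cre-GFP 2 and −0.62 without Cre-GFP 1. Probe set 1422574_at differed by −0.40 ± 0.24 with groups that did not overlap, because control 2 alone stood high (6.71 and 6.69 in Cre-GFP, against 6.76 and 7.44 in control). Without control 2 this difference was −0.06. The remaining probe sets, 1434379_at and 1422575_at, differed by −0.16 ± 0.21 and −0.12 ± 0.13, and both turned positive without Cre-GFP 2, to 0.10 and 0.01.

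The other antagonists differed little. Mxi1 read 7.57 and 7.63 in Cre-GFP, against 7.50 and 7.47 in control, on its brighter probe set. The 2 Cre-GFP arrays were just above the controls, with a difference of 0.11 ± 0.15, and the dimmer probe set overlapped at −0.05 ± 0.13 (0.04 without Cre-GFP 2 and 0.06 without control 2). Mnt, the most broadly expressed of the antagonists, read 8.84 and 8.53 in Cre-GFP, against 8.61 and 8.42 in control. These groups overlapped, with a difference of 0.17 ± 0.19 that was 0.01 without Cre-GFP 1, 0.08 without control 2 and 0.33 without Cre-GFP 2. Its second probe set differed by 0.20 ± 0.14, with Cre-GFP 2 and control 2 both at 6.03, a value that dropping Cre-GFP 1 brought to 0.06 and dropping Cre-GFP 2 to 0.34. Mxd1, the founding member of the Mxd group, read 5.17 and 4.99 in Cre-GFP, against 4.77 and 5.03 in control, and its difference of 0.18 ± 0.13 was 0.09 without Cre-GFP 1 and 0.05 without control 1.

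**Figure D2:**
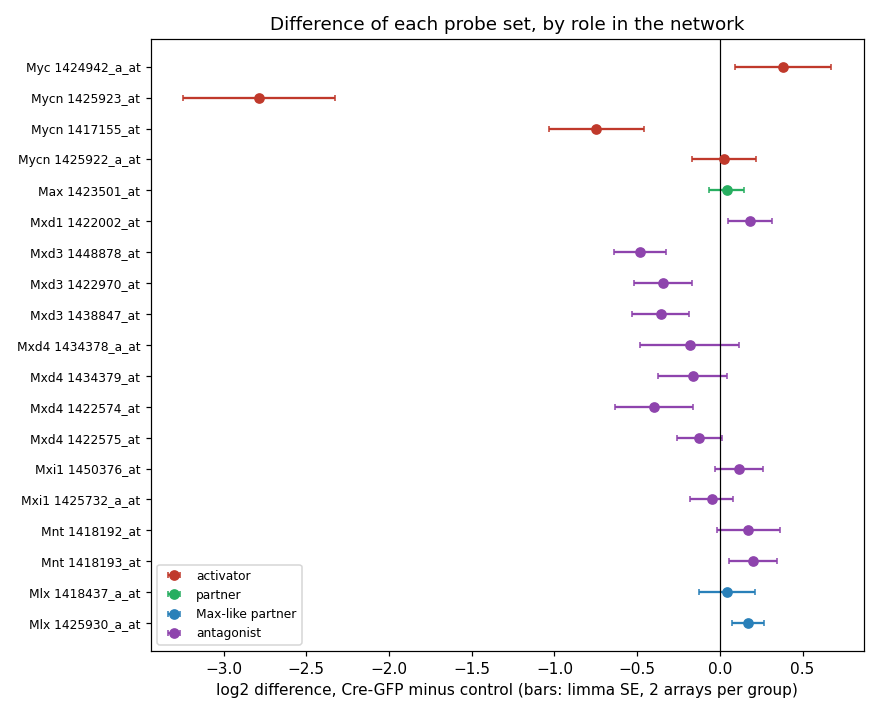
Log2 difference of Cre-GFP minus control (x axis) for each member probe set (rows), coloured by role, with bars of 1 limma SE (2 arrays per group). Mycn 1425923_at at −2.78 lies far to the left, the Mxd3 probe sets lie between −0.48 and −0.34, and the others lie between −0.75 and 0.38.

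Across the antagonists the median difference of the brightest probe sets was 0.11 over 5 genes. Mycn 1425923_at stood −2.90 from that median and Myc 0.27. Against single antagonists the Mycn difference was −2.30 from Mxd3 and −2.60 from Mxd4, and −2.90, −2.96 and −2.97 from Mxi1, Mnt and Mxd1. With the mean of all probe sets of each gene, Mycn stood −1.20 from the median of the antagonists. On the brightest probe sets, the difference of Myc exceeded that of Mxd3 by 0.87 ± 0.40 (SE from the array values, n = 2 per group), and its gaps of 0.20 to 0.56 to the other antagonists were smaller than their own SEs of 0.34 to 0.57.

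Mlx read 7.05 and 6.94 in Cre-GFP, against 6.78 and 7.12 in control, on its brighter probe set, where the controls lay on either side of the Cre-GFP arrays (0.05 ± 0.17, and −0.13 without control 1). A dim second probe set read 5.20 and 5.18 in Cre-GFP, against 5.04 and 5.01 in control, with no overlap and a difference of 0.17 ± 0.10.

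In all, 6 of 19 member probe sets had both Cre-GFP arrays below both controls, beside 14.6% of all probe sets, and 2 of 19 had them above, beside 15.4%. The 6 were 2 of Mycn, 3 of Mxd3 and 1 of Mxd4, and the 2 belonged to Mxi1 and Mlx. Since this contrast was in view when the genes were proposed, nothing is read from these counts. The median over the 19 was −0.05, and over all probe sets 0.0019.

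**Figure D3:**
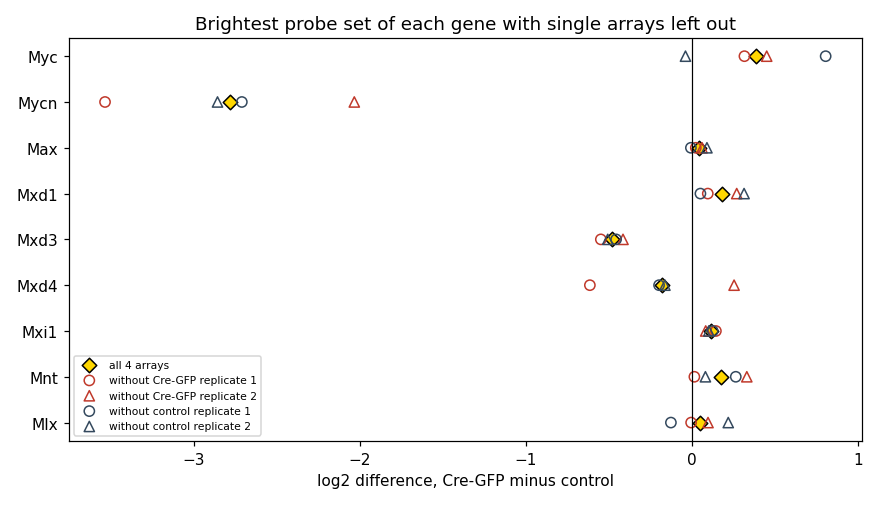
Log2 difference of Cre-GFP minus control (x axis) for the brightest probe set of each member (rows), with all 4 arrays (diamonds) and with each array left out (open symbols). Mycn moves between −3.54 and −2.03 and Mxd3 between −0.55 and −0.42, while Myc, Mxd4, Max and Mlx cross 0.

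The E-box CACGTG, which the network's own proteins bind, was present before or at the start of several members. Of the 10 RefSeq windows matched to 8 members, 4 held CACGTG, beside 7.15% of all windows used. Base composition was not matched in this comparison. The 4 sites are shown with 9 bases on either side and the E-box in capitals, 5′ to 3′ along the gene.
Max (chr12:76962237-76962260, strand minus): gagcccggtCACGTGttagggggc
Mlx (chr11:101087241-101087264, strand plus): gggttggatCACGTGactgagcct
Mnt (chr11:74830792-74830815, strand plus): cacccaagcCACGTGtgcgcgcgc
Mxd4 (chr5:34187915-34187938, strand minus): ctgggccacCACGTGctgttgcta
The E-box of Max began 3 bases before the annotated gene start, that of Mlx 40, that of Mnt 123 and that of Mxd4 219. The differences of these 4 genes on their brightest probe sets, between −0.18 and 0.17, were all smaller than their SEs.

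The measured genes next to Mycn on chromosome 12, looked at after its value was seen, mostly differed little. Ddx1, an RNA helicase gene that is often co-amplified with human MYCN in tumours, read 9.77 and 9.88 in Cre-GFP, against 9.68 and 10.07 in control, a difference of −0.05 ± 0.20. Smc6, on the other side, differed by −0.01 ± 0.30, and Vsnl1, Tubb2a-ps2 and Lratd1 by −0.02 to 0.22. Trib2, a pseudokinase gene 3 measured genes away, read 5.99 and 5.00 in Cre-GFP, against 7.21 and 7.61 in control, and differed by −1.92 ± 0.33 (limma adjusted p = 0.45 over all probe sets). None of the 6 neighbours passed.

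The 5 genes whose centred profile over the 4 arrays lay nearest to that of Mycn were Spib (an Ets transcription factor), Pou2af1 (a coactivator of octamer-binding factors and 1 of the B lineage markers summed above), Alpl (an alkaline phosphatase) and the interferon-inducible genes Ifi27l2a and Ifi209, out of 6196 other genes at or above the median intensity. The root mean square distance was 0.43 for Spib and 0.55 to 0.63 for the others, on the log2 scale. Their differences were −2.26 ± 0.57, −1.68 ± 0.49, −1.94 ± 0.23, −1.88 ± 0.45 and −1.84 ± 0.29 in that order. All 5 had Cre-GFP 1 above Cre-GFP 2, as Mycn did. Spib read 8.28 and 6.58 in Cre-GFP, against 9.29 and 10.10 in control. Its control arrays stood in the opposite order to those of Mycn. The 5 genes nearest to Myc were Sdc1, Ttc1, Atf7, Pa2g4 and Rrp1b, at distances of 0.03 to 0.05. These followed the low value of control 2, as Pa2g4 shows with 11.64 and 11.53 in Cre-GFP, against 11.53 and 10.82 in control. With 4 arrays such likeness describes these arrays only.

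Around the network, 5 further members of the extended family were measured and none passed limma, beside a background of 0.0% of genes. Mycl, the third Myc protein of mammals, read 5.76 and 5.48 in Cre-GFP, against 5.43 and 5.44 in control (0.19 ± 0.13, with −0.14 and −0.13 on its other probe sets). Mycs, a rodent Myc gene, differed by 0.09 ± 0.10. Without Cre-GFP 1 these differences were 0.045 for Mycl and 0.020 for Mycs, and without Cre-GFP 2 they were 0.33 and 0.17. Mga, a large Max partner that represses germline genes, differed by 0.32 ± 0.25, by −0.0037 without control 2, and by 0.09 on its other probe set. Mlxip, the MondoA partner of Mlx, read 8.37 and 8.15 in Cre-GFP, against 8.54 and 8.39 in control (−0.20 ± 0.17, with −0.097 without Cre-GFP 2, −0.13 without control 1 and −0.31 without Cre-GFP 1), and Mlxipl differed by −0.06 ± 0.24 (0.30 without Cre-GFP 2). Of the 5, 2 were higher and 1 lower in both Cre-GFP arrays, beside 15.2% and 14.9% of all genes.

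Genes that Myc is known to induce were higher by group means in 33 of 40 cases, beside 50.0% of all genes, and 0 of the 40 passed limma. Their median difference was 0.18, beside 0.0 over all 12394 genes. Both Cre-GFP arrays were above both control arrays for 18 of the 40, beside 15.2% of all genes, and below them for 0, beside 14.9%. Pus7, a pseudouridine synthase, read 8.60 and 8.59 in Cre-GFP, against 8.05 and 7.71 in control, a difference of 0.71 ± 0.18 (limma adjusted p = 0.74). Apex1, a DNA repair endonuclease, differed by 0.36 ± 0.12, with 0.41 and 0.42 on its other probe sets. Ifrd2, read at 6.28 and 6.56 in Cre-GFP, against 6.06 and 5.88 in control, differed by 0.45 ± 0.15, and the folate carrier Slc19a1 by 0.33 ± 0.16, with −0.0069 and 0.25 on its other probe sets and 0.21 without Cre-GFP 2. The list median became 0.13 when Cre-GFP 2 was dropped and 0.26 when Cre-GFP 1 was. A list of this kind was already known to be higher in these arrays, so its direction is not independent evidence. Of the marker sums given above, those of the B lineage were lower and those of monocytes higher in both Cre-GFP arrays. Without Csf1r the monocyte sums of Cre-GFP 2 and control 2 lay close, at 979.6 and 951.5. Whether these markers bear on the list was not tested.

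E-boxes were found in 12 of 42 promoter windows of these induced targets, or 28.6%, beside 7.15% of all windows used. The repressed genes described below held them in 1 of 14 windows, and the Mlx partner targets in 2 of 8. Base composition was not matched here either. These shares describe the promoters of genes listed from general knowledge, and nothing about the arrays is read from them. The 42 windows belong to 34 of the 40 targets. Those of Pus7 and Apex1 are shown, as the named genes that hold CACGTG, in 5′ to 3′ direction with the E-box in capitals.
Pus7 (chr5:23783669-23783692, strand minus): gcagcgccgCACGTGtgcgagccc
Apex1 (chr14:50924916-50924939, strand plus): ctccagaacCACGTGggggcggag
Apex1 (chr14:50924940-50924963, strand plus): ccctcgaatCACGTGaccacacca
Apex1 (chr14:50924961-50924984, strand plus): ccaatcgccCACGTGggaacaggc
Apex1 held 3 E-boxes between 24 bases before and 21 after its annotated start, and Pus7 held 1 at 28 bases after.

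Genes that Myc is known to repress were lower by group means in 11 of 15 cases, beside 49.8% of all genes, with a median of −0.15 and 0 past limma. Gadd45a, a growth arrest gene of the DNA damage response, read 4.31 and 4.16 in Cre-GFP, against 4.93 and 5.02 in control, a difference of −0.74 ± 0.10 (limma adjusted p = 0.31). Its Cre-GFP values lay under the 20th percentile of their arrays, and the difference was −0.25 once such values were raised to it. Cdkn1a (p21) differed by −0.47 ± 0.19, with −0.31 without control 2, and Cdkn2b (p15), both inhibitors of cyclin-dependent kinases, by −0.32 ± 0.16, with −0.16 without Cre-GFP 2. Ndrg1, the N-myc downstream regulated gene, was higher instead, at 9.08 and 9.19 in Cre-GFP, against 8.43 and 8.72 in control (0.56 ± 0.18, with 0.05 to 0.88 on its other probe sets). In both Cre-GFP arrays 6 of the 15 were lower and 2 higher, beside 14.9% and 15.2%. The median shrank to −0.015 with the dimmest probe sets left out and to −0.040 when Cre-GFP 2 was dropped.

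Cofactors of Myc were higher by group means in 10 of 14 cases, beside 50.0% of all genes, with a median of 0.13 and 0 past limma. Ruvbl2, a helicase of chromatin remodelling complexes, differed by 0.29 ± 0.18 (0.18 without Cre-GFP 1 and also without control 2) and Ep400, the ATPase of the TIP60 complex, by 0.25 ± 0.18 (0.09 without Cre-GFP 1). Wdr5, which binds Myc at chromatin, differed by 0.19 ± 0.16 (−0.03 on its other probe set), and Hcfc1, another chromatin partner of Myc, by 0.17 ± 0.22, turning to −0.04 without Cre-GFP 1. The list median reached 0.27 when Cre-GFP 2 was dropped and −0.0014 when control 2 was. Of the 14, 4 were higher in both Cre-GFP arrays and 0 lower, beside 15.2% and 14.9% of all genes.

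The corepressors that the antagonists recruit had a median of −0.04 over 8 genes, 7 of them lower by group means, beside 49.8% of all genes. None passed limma, and 0 of the 8 were separated between the groups in either direction, beside 15.2% higher and 14.9% lower of all genes. Hdac2, a histone deacetylase, read 7.07 and 8.04 in Cre-GFP, against 7.74 and 8.30 in control (−0.46 ± 0.36, and 0.03 without Cre-GFP 1). Suds3, a Sin3 complex subunit, differed by 0.22 ± 0.21, the scaffold Sin3b by −0.12 ± 0.15 and the deacetylase Hdac1 by −0.10 ± 0.16. Without Cre-GFP 1 these differences were 0.028, −0.026 and −0.036, without Cre-GFP 2 they were 0.42, −0.22 and −0.17, and without control 2 they were 0.10, −0.019 and −0.064. Without control 1 those of Suds3 and Sin3b were 0.35 and −0.22. Sin3b turned to 0.076 once probe sets that can match several transcripts or genes were dropped.

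Genes that set the stability of Myc proteins had a median of 0.02 over 11 genes, with 0 past limma. Pim1, a kinase that phosphorylates and stabilizes Myc, read 11.13 and 11.56 in Cre-GFP, against 11.79 and 12.47 in control, a difference of −0.79 ± 0.27 (limma adjusted p = 0.93). Dropping control 2 gave −0.44, and its other probe set differed by −0.13. Ppp2ca, a phosphatase catalytic subunit, differed by −0.25 ± 0.20 (−0.03 without Cre-GFP 1), the mitotic kinase Plk1 by −0.18 ± 0.16 and the deubiquitinase Usp22 by 0.09 ± 0.11.

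Targets of Mlx with its glucose-sensing partners had a median of 0.02 over 9 genes, 5 higher and 4 lower by group means, beside 50.0% and 49.8% of all genes, and 0 passed. Txnip, a glucose-induced inhibitor of glucose uptake and a standard readout of MondoA and Mlx, read 8.93 and 8.57 in Cre-GFP, against 10.17 and 9.27 in control, a difference of −0.98 ± 0.32 (limma adjusted p = 0.93). Without control 1 it was −0.53, without control 2 −1.42, and its other probe set differed by 0.13. Fasn (fatty acid synthase) differed by 0.53 ± 0.28, with 0.19 without Cre-GFP 1 and 0.31 without control 2. Pfkfb3, an activator of glycolysis, differed by 0.22 ± 0.12, with −0.04 on its other probe set. Acaca (acetyl-CoA carboxylase) differed by −0.18 ± 0.10.

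**Figure D4:**
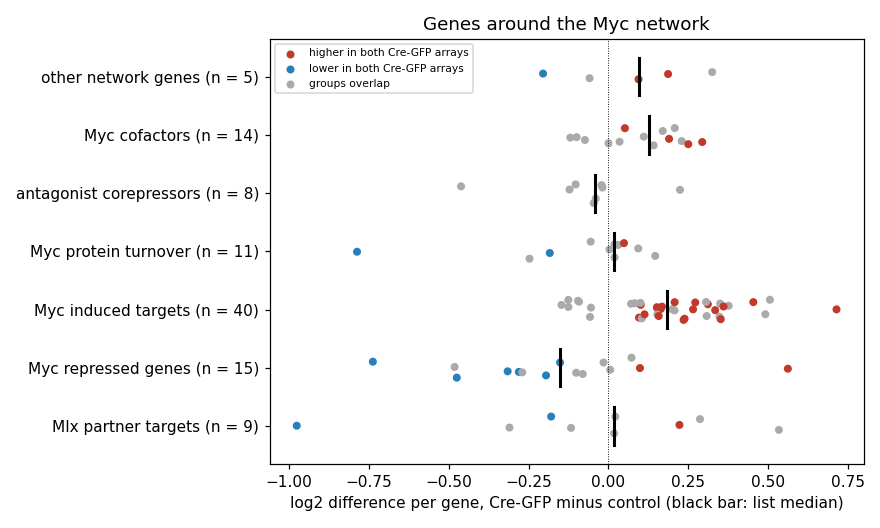
Log2 difference of Cre-GFP minus control for each measured gene (points) of 7 lists around the network (rows), coloured by whether both Cre-GFP arrays lie above or below both control arrays, with black bars for list medians. The 40 induced targets centre on 0.18, the 15 repressed genes on −0.15, and the other medians lie between −0.04 and 0.13.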

How the data were processed

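RNA was hybridized to 2 Cre-GFP and 2 control Affymetrix mouse arrays after amplification of 20 ng with a NuGen Ovation kit. The authors deposited 1 table of probe set intensity values on a linear scale, made with RMA per the submitters' processing notes, whose version the sources used here do not give. RMA normally corrects background, equalizes arrays by quantiles and summarizes probes, so shifts shared by most genes are not seen. Values were taken to log2 without further normalization.

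Of 22690 probe sets, the platform annotation gave 1 symbol for 20393 (20364 matched RefSeq by gene number, with 0 symbols changed), several for 691 and none for 1606. All 20393 entered limma 3.58.1 in R 4.3.3 (intensity trend, two-sided, Benjamini-Hochberg over all, threshold 0.05), which was tested on simulated data. A gene outside the members is represented by its brightest probe set. Errors after ± are limma's standard errors unless stated. No scan batch could be tested. Precision is limited by having only 4 arrays.

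Members and lists were chosen with earlier results of these data known. Named genes were all member probe sets, all measured further family genes, the 4 smallest p-values of each other list, and the 5 nearest profiles to Mycn and to Myc; neighbours of Mycn were added after its value was seen. Alternatives concerned dim values, probe sets that can match several transcripts or genes (names ending in _a_at, _s_at or _x_at), normalization, probe set choice, the test, the replicate number as a block and single arrays left out. Replicate numbers are shared by the groups, but no label says that they mark a shared mouse or batch.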

Additional observations from a re-analysis of the deposited data

How the results depend on the processing

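With 2 arrays per group, the count of probe sets past the threshold over the whole table was 0 in every planned setting except the ordinary test (1), without control 1 (25) and without control 2 (1), and no member or list gene was among these. With the mean of all probe sets of a gene, Mycn minus Myc was −1.55, Mycn minus the antagonists −1.20 and the median of Mlx partner targets −0.079. With single arrays left out, Mycn minus Myc ranged from −3.85 to −2.48 and Mycn minus the antagonists from −3.55 to −2.29. Without probe sets whose names end in _a_at, _s_at or _x_at (multi-transcript probe sets) Myc was not measured, so the first could not be computed. Member probe sets higher in both Cre-GFP arrays numbered 2, with 1 in the upper 60% by mean, 1 without multi-transcript probe sets and 2 to 10 with an array left out; those lower numbered 6, and 6 to 10 with an array left out, where fewer arrays make separation easier by construction. The median of the repressed genes was −0.015 in the upper 60% by mean. Medians with single arrays left out ranged from −0.21 to −0.040 for repressed genes, 0.13 to 0.26 for induced targets, −0.0014 to 0.27 for cofactors, −0.14 to 0.0080 for corepressors, −0.0037 to 0.30 for further family genes, −0.05 to 0.05 for protein turnover and −0.05 to 0.08 for Mlx partner targets. With arrays left out, the brightest probe sets of 4 members turned sign. They were Myc (−0.04 to 0.80), Max (−0.0071 to 0.09), Mlx (−0.13 to 0.22) and Mxd4 (−0.62 to 0.25). Named genes of the lists also turned sign: Mycl to −0.028 with the mean of its probe sets and Sin3b to 0.076 without multi-transcript probe sets. With arrays left out, so did Hcfc1 (−0.038 to 0.38), Hdac2 (−0.95 to 0.026), Mga (−0.0037 to 0.65), Mlxipl (−0.42 to 0.30) and Usp22 (−0.0046 to 0.19). With the replicate block the count of calls was 0 and the differences of Mycn and Myc stayed at −2.78 and 0.38, as the design is balanced. Same-numbered arrays deviated together with r = 0.36 across probe sets. No label says what same-numbered arrays share, and the cause was not tested. Median centring and quantile normalization left Mycn at −2.79 and −2.77.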
